A study of Rattus norvegicus with 2 samples.

Results

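The genes described here are 10 transcriptional targets and brakes of TGF-beta and BMP signalling, namely Id1, Id2, Id3, Id4, Smad6, Smad7, Skil, Bambi, Tgif1 and Snai2. The cells were IEC6, a line derived from the epithelium of the rat small intestine, kept for 60 min with Na2S3 (sodium trisulfide, an inorganic polysulfide) or with water. The treatment was given in DMEM with little serum, per the labels' protocol. The treatment label gives 100 µM Na2S3, and the protocol text gives 100 mM for the same step, so the dose is uncertain. Each group is 1 RNA sample on 1 single-colour array, so no difference has a replicate check, no test between groups is possible, and "higher" and "lower" describe these arrays. All non-control probes whose gene name in the array file is one of the 10 symbols were taken, which gave 12 of 45598 probes. Of the 10 genes, 9 were measured, meaning that at least 1 probe was flagged well above background on both arrays, among 13062 measured genes in all.

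TGF-beta and BMP ligands bind paired serine/threonine kinase receptors that phosphorylate SMAD proteins, which then enter the nucleus with SMAD4. The BMP branch uses SMAD1, SMAD5 and SMAD9 and typically induces the Id genes, whose products bind E proteins and keep them off DNA. The TGF-beta branch uses SMAD2 and SMAD3. Both branches induce their own inhibitors. Id1, Id2, Id3, Id4 and Smad6 were treated as BMP-type targets, Smad7, Skil, Tgif1 and Snai2 as TGF-beta-type targets, and Bambi, which both branches induce, as neither. The division is a simplification, since BMP also induces Smad7, and other signals reach several of these genes.

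The TGF-beta-type targets stood higher after Na2S3, whereas the BMP-type targets other than Id1 did not. The median log2 ratio of the Na2S3 array over the water array was 1.03 over 4 TGF-beta-type genes and 0.0060 over 5 BMP-type genes, a difference of 1.02. Id1 was the exception among the BMP-type genes, with a log2 ratio of 1.12. Of the 9 measured genes, 3 (33.3%) reached a 2-fold higher value, namely Id1, Snai2 and Smad7, and 0 reached a 2-fold lower one. Over all measured genes, 0.942% reached 2-fold higher and 0.620% reached 2-fold lower, or 1.56% either way. The median over the 9 genes was 0.53, against -0.04 over all 13062 measured genes, whose ratios had an SD of 0.34. The genes and their division were chosen with earlier results of these data known, so these counts and medians are a description. In a bulk sample, fewer cells of a type and less RNA per cell cannot be told apart.

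Every one of the 12 probes is printed once on each array. The error quoted for a ratio is therefore the SD of single-spot log2 ratios among other probes that are printed repeatedly and have a similar signal. It covers spot noise within this pair of arrays and nothing of the variation between cultures. It was 0.36 for signals below 64, 0.19 from 64 to 128, 0.16 from 128 to 256, and between 0.06 and 0.10 above 256.

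The oligonucleotides are shown where the sequence is needed to say what was read, with nothing capitalised. The probes of Id2 and Smad6 align over more genome than their own 60 bases. Id2 has another probe, listed under another sequence record than the Id2 RefSeq transcript.
Smad6: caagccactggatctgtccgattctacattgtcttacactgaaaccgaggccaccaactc
Id2, RefSeq transcript: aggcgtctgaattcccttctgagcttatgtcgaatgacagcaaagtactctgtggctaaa
Id2, other record: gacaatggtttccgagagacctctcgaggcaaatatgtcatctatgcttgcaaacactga
The Smad6 probe lies on chromosome 8 at 68199857 to 68204156, minus strand, a span of 4300 bases in the files' rn4 build. The Id2 RefSeq probe lies on chromosome 6 at 42782548 to 42782897, minus strand, a span of 350 bases. The other Id2 probe lies at 42769872 to 42769931 on the same strand. Exon and UTR annotation of that build was not used here.

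**Figure D1:**
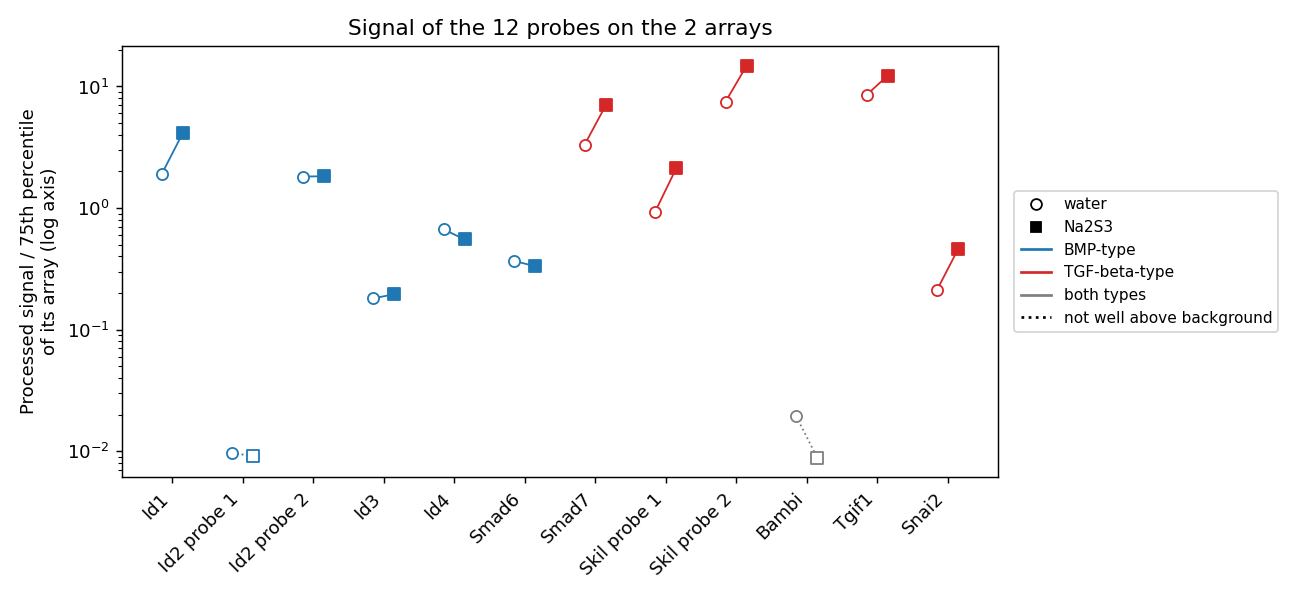
Processed signal of each of the 12 probes divided by the 75th percentile of its own array, on a log axis, with open circles for the water array, squares for the Na2S3 array and dotted lines for probes that were not well above background. The lines of Id1, Smad7, Snai2 and both Skil probes climb most, Tgif1 climbs less, and those of Id2 (probe 2), Id3, Id4 and Smad6 stay close to level; the heights of different probes are not comparable with each other.

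The Id genes encode helix-loop-helix proteins that lack a DNA-binding region and act by dimerising with E proteins. Id1 had a processed signal of 783 on the water array and 1971 on the Na2S3 array. After scaling to the 75th percentile of each array (413 and 478), its level was 1.89 and 4.13. Id1 was thus 2.18-fold higher (log2 ratio 1.12, spot error 0.08) and ranked 90th from the highest among all measured genes. Its probe lies on chromosome 3 at 143087157 to 143087216, plus strand. The unprocessed mean pixel signal was 891 and 2136 over local backgrounds of 73.5 and 63, so the difference is present before background subtraction.

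Id2 had processed signals of 751 and 871, or 1.82 on both arrays once scaled. Its log2 ratio was 0.0060 with a spot error of 0.08, so the arrays could not be told apart for this probe. The other Id2 probe read 3.97 and 4.39 and lay too near background on each array for a ratio. Id3, read at 74.7 and 93.3, had a log2 ratio of 0.11 with a spot error of 0.19, again within spot noise. Id4, read at 276 and 263, had -0.28 with a spot error of 0.10, which is 1.21-fold lower and beyond the spot error but far from 2-fold. The Id3 probe lies on chromosome 5 at 154935647 to 154935706, plus strand, and the Id4 probe on chromosome 17 at 22525459 to 22525518, minus strand.

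The members of the Id family therefore differed among themselves. Id1 exceeded Id2 by 1.12 on the log2 scale (spot error of the difference 0.11) and exceeded Id4, the lowest, by 1.40 (0.12). These are differences between ratios, not between levels, and no replicate gives their spread between cultures.

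Smad6 and Smad7 encode the inhibitory SMADs, which block receptors and recruit ubiquitin ligases to them. SMAD6 acts mainly on the BMP branch and SMAD7 on both. Smad7 had processed signals of 1371 and 3336, and its scaled level was 3.32 on the water array and 6.99 on the Na2S3 array. It was 2.11-fold higher (log2 ratio 1.07, spot error 0.09), 102nd from the highest. Smad6 had processed signals of 152 and 158, scaled 0.368 and 0.332. Its log2 ratio was -0.15 with a spot error of 0.16, within spot noise. The inhibitory SMADs thus parted, with a difference of 1.22 between their log2 ratios (spot error 0.19). The Smad7 probe lies on chromosome 18 at 72323004 to 72323062, plus strand.

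Skil encodes SnoN, a co-repressor that binds SMAD complexes and is itself a rapid TGF-beta target. It was read by 2 probes that were both well above background. The brighter had processed signals of 3103 and 7097, scaled 7.50 and 14.9, a 1.98-fold difference (log2 ratio 0.99, spot error 0.10). The dimmer read 385 and 1013, scaled 0.930 and 2.12, a 2.28-fold difference (1.19, spot error 0.08). The probes differed by 0.20 in log2 ratio, and both gave a higher value after Na2S3. The gene's value is that of the brighter probe, which falls just short of 2-fold, so Skil is not among the 3 genes counted above. With the median of its probes it stood at 1.09, and 4 of 9 genes then passed. The brighter probe lies on chromosome 2 at 116665768 to 116665827 and the dimmer at 116665548 to 116665586, minus strand.

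Tgif1 encodes a homeodomain co-repressor of SMAD2 and SMAD3. Its processed signals were 3521 and 5864, scaled 8.52 and 12.3. It was 1.44-fold higher (log2 ratio 0.53, spot error 0.10), short of 2-fold yet above 96.3% of measured genes. The probe lies on chromosome 9 at 110043247 to 110043306, minus strand.

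Snai2 encodes Slug, a zinc-finger repressor of epithelial genes, and its probe has no position in the array file. Its processed signals were 87.8 and 220, scaled 0.212 and 0.461, a 2.17-fold difference (log2 ratio 1.12, spot error 0.16). Of the 9 ratios, that of Snai2 moved most with the background correction. With normexp, which models background and adds an offset of 50, the log2 ratio was 0.63, and Snai2 was no longer past 2-fold. The mean pixel signals were 163 and 284 over local backgrounds of 59 and 55.

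Bambi encodes a decoy receptor without a kinase domain. Its probe, on chromosome 17 at 62654418 to 62654477, minus strand, read 8.04 on the water array and 4.23 on the Na2S3 array. Neither value was well above background, so no ratio is given for Bambi.

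**Figure D2:**
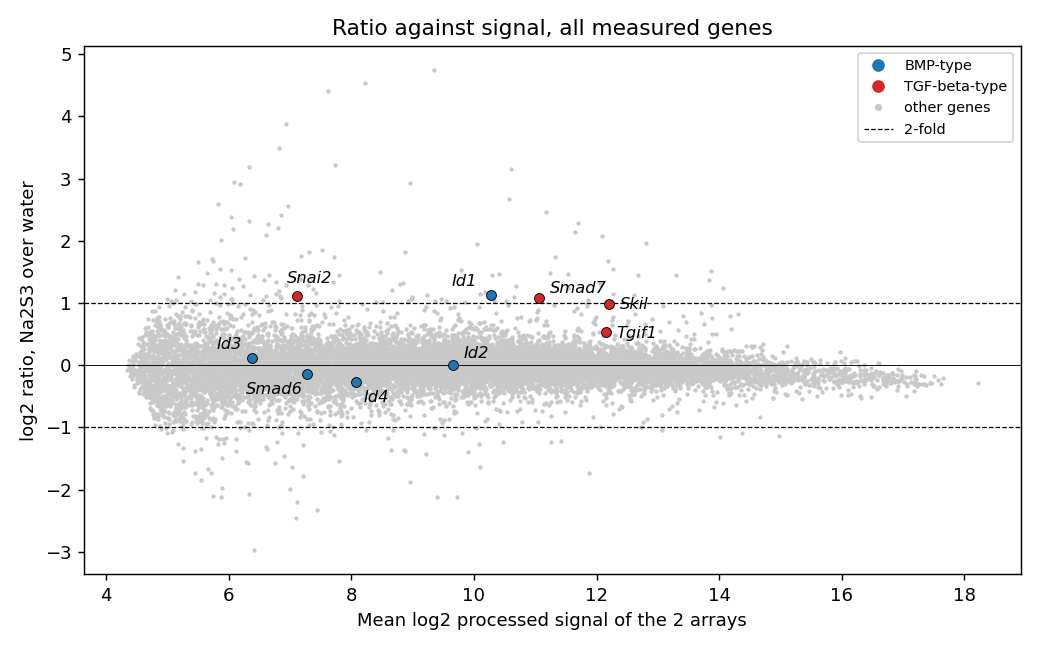
Log2 ratio of the Na2S3 over the water array against the mean log2 processed signal, for all 13062 measured genes (grey) and the 9 measured members (blue, BMP-type; red, TGF-beta-type), with dashed lines at 2-fold. Id1, Smad7, Snai2 and Skil lie above the dense band of genes, Snai2 at a mean signal of 139 and Skil at 4693.

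Over 8 alternatives other than lifting the filter on dim probes, Id1 ranged from 1.10 to 1.17 and Smad7 from 1.07 to 1.12, always past 2-fold. Skil ranged from 0.98 to 1.09, on either side of 2-fold, and Tgif1 from 0.53 to 0.59. Id2, Id3, Id4 and Smad6 stayed between -0.28 and 0.17. With Smad7 moved to the BMP-type genes the difference of medians was 0.93. Bambi was also moved, but it has no ratio, so its assignment could not change the difference. Without Id1, a setting added after its value was seen, the difference was 1.10.

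**Figure D3:**
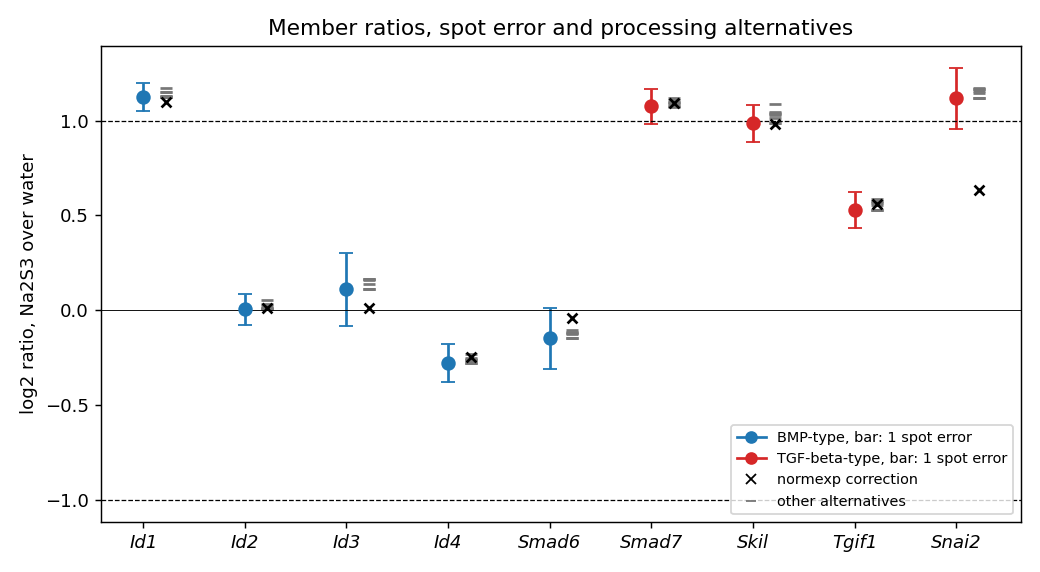
Log2 ratio of each measured member (filled circles, bars of 1 spot error) beside the values under the processing alternatives (grey dashes, with crosses for normexp), and dashed lines at 2-fold. Snai2 is the only member whose normexp value, 0.63, lies far below its reported value of 1.12.

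The RefSeq table of the GRCr8 assembly holds the start of 7 of the 10 genes, namely Id1, Id2, Id3, Id4, Smad7, Skil and Bambi. The 250 bases upstream were searched on both strands for the SMAD motifs GTCTAGAC and CAGAC, the GC-rich BMP element GGCGCC, the CRE TGACGTCA bound by ATF and CREB factors, and the AP-1 site TGANTCA. GTCTAGAC was found upstream of 0.173% of 33469 genes, CAGAC of 42.9%, GGCGCC of 8.69%, TGACGTCA of 1.59% and TGANTCA of 6.34%. These motifs can overlap only where their letters allow, and a match is a description of letters. Id1, which stood past 2-fold, is shown with Id2, whose ratio was close to 0, Smad7 and the CRE of Skil, with matches in capitals. Stretches that the annotation places inside the gene were left out, and for Skil only 30 bases around the CRE are printed.
Id1: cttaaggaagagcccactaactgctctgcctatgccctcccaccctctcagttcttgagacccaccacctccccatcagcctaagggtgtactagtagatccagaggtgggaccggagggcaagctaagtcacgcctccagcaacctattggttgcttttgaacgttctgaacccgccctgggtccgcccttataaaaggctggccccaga
Id2: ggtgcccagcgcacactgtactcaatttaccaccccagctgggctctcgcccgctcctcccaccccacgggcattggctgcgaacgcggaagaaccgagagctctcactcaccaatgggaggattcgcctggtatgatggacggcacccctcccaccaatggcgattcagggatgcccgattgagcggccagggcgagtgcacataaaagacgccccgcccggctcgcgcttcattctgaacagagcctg
Smad7: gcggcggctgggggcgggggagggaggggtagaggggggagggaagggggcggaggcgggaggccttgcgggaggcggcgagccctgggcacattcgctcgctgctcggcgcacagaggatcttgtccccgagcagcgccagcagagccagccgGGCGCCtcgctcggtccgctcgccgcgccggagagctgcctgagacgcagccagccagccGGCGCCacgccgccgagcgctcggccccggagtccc
Skil: cgcgggccgggTGACGTCAgaggctgtgtg
The Id1 stretch is chr3:161671314-161671524 on the plus strand and the Id2 stretch chr6:47470996-47471245 on the minus strand. The Smad7 stretch is chr18:71263258-71263507 on the plus strand, and the Skil stretch is chr2:114203607-114203636 on the minus strand. None of the 5 motifs was in the 250 bases of Id1, Id2, Id3 or Id4. Smad7 held GGCGCC 2 times, and Bambi held it 1 time. Skil held GGCGCC 2 times, CAGAC or its complement 2 times and TGACGTCA 1 time, 53 to 46 bases before the start. Since Id1 held none of the 5 motifs, none was common to Id1, Smad7 and Skil. The 250 bases were 78% G or C for Smad7, 77.2% for Skil and 72.4% for Bambi, against 54.8% to 62.8% for the Id genes. The shares of genes with each motif were not matched for base composition.

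Other genes of the pathways were taken from 9 lists with 104 genes in all, of which 75 were measured. Of these, 4 (5.33%) passed 2-fold upward and 0 downward, with a median log2 ratio of 0.03. Over all measured genes, 0.942% passed upward and 0.620% downward. A gene above background on 1 array only, such as Nog described below, is outside these counts. Among the ligands, 12 of 20 were measured and 1 passed 2-fold. That was Inhba, the activin A subunit gene, at 42.7 and 103 (1.07, spot error 0.19), which stood at 0.34 with normexp. The TGF-beta ligand genes Tgfb1 (0.08), Tgfb2 (-0.59) and Tgfb3 (-0.20) and the BMP ligand genes Bmp2 (-0.27) and Bmp4 (-0.33) did not pass. The 4 probes of Tgfb2 ran from -0.59 to 0.48 and the 3 of Bmp2 from -0.27 to 0.26, so neither has a settled direction.

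No receptor gene passed 2-fold (0 of 8 measured), where 0.942% of all measured genes passed upward and 0.620% downward. Beside those shares, a count of 0 in a list this short says little. Tgfbr1 and Tgfbr2, which bind TGF-beta, had -0.05 and -0.09, and the BMP receptor genes Bmpr1a, Bmpr2 and Acvr1 had -0.22, 0.19 and 0.45, the last with a spot error of 0.36. No signalling SMAD passed either (0 of 5 measured), a count that says as little. Smad1, of the BMP branch, had 0.70 (1680 and 3159) and Smad3, of the TGF-beta branch, 0.58 (811 and 1398). Smad2 had 0.13, Smad4 0.05 and Smad5 -0.11, although the 4 probes of Smad5 ran from -0.31 to 0.45. Smad9 was too dim on both arrays for a ratio.

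Of the 10 measured extracellular antagonists, 0 passed 2-fold. That says little beside 0.942% upward and 0.620% downward over all measured genes. Nog, which sequesters BMPs, could be read above background in water only, at 54.4 against 8.75 after Na2S3. The point values place it at least 3.06-fold higher in water. Signals below 64 had a spot error of 0.36 on the log2 scale, so that bound is not firm. Among the intracellular repressors and ubiquitin ligases, 1 of 11 passed. That was Sik1, a kinase gene that TGF-beta induces, at 1668 and 5314 (1.46, spot error 0.09). Its probes gave 1.27 and 1.46. The co-repressor relatives of Skil and Tgif1 did not share their ratios, with Ski at -0.17 (spot error 0.10) and Tgif2 at -0.55 (spot error 0.08; -0.82 at its other probe). Whether the members of each pair differ in culture could not be tested.

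Further targets of the pathways went both ways, and few passed 2-fold. The 13 measured TGF-beta targets outside the 10 genes had a median log2 ratio of 0.16, with 7 positive, 6 negative and 1 past 2-fold. The 9 measured BMP targets had a median of -0.21, with 3 positive, 6 negative and 0 past 2-fold. Over all genes 43.4% of ratios were positive, 0.942% passed 2-fold upward and 0.620% downward. The SD of 0.34 is that of single genes and does not measure the spread of a median over 13 or 9 genes. The medians differed by 0.37, and the difference lay between 0.31 and 0.38 under the 9 processing alternatives. Median and spike-in scaling shift all ratios alike, so they could not change this difference. Junb, an AP-1 subunit gene, had 195 and 638 (1.50, spot error 0.10), and 1.27 with normexp. Klf10, a TGF-beta-induced early gene, had 0.66. Ccn2 at 0.97 and Cdkn1a at 0.95 lay just short of 2-fold, although the other probe of Cdkn1a gave 1.10. Acta2 at -0.27, Snai1 at -0.26 and Col1a1 at -0.24 were the lowest TGF-beta targets. The BMP targets ran from Dlx5 at -0.94 and Gata2 at -0.91 to Runx2 at 0.43 and Gata3 at 0.83. Gata3 was read at 58.5 and 120 (spot error 0.19) and Dlx5 at 213 and 129 (spot error 0.16). With normexp, Dlx5 stood at -0.62, Gata2 at -0.75, Runx2 at 0.36 and Gata3 at 0.41. Apart from Snai1, these genes were chosen after their values were seen.

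Snai1, the closest relative of Snai2, was read at 775 and 747 and had -0.26 (spot error 0.08). The E protein genes that Id proteins bind had ratios near 0, with Tcf3 at 0.02, Tcf4 at -0.11 and Tcf12 at -0.12, although the other probe of Tcf12 gave 0.66. Hes1, a Notch target that belongs to the same HLH list, was the only one of 6 to pass, at 63.8 and 186 (1.34, spot error 0.19; 0.81 with normexp). With normexp, 2 of the 75 genes passed 2-fold, and under the other alternatives 4 to 6 did.

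**Figure D4:**
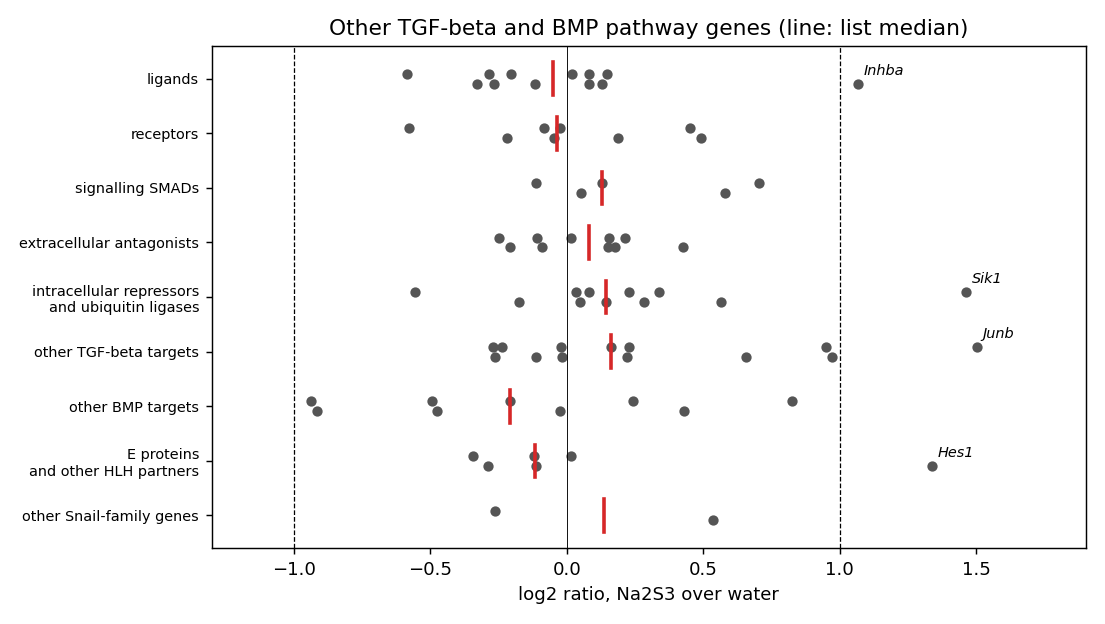
Log2 ratio of each measured gene in the 9 lists of other pathway genes, with the list median as a red line and dashed lines at 2-fold; Snai1 stands in 2 lists. Names mark the 4 genes past 2-fold (Inhba, Sik1, Junb and Hes1), and 0 genes lie below the lower line.

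The labelled cell type was checked with marker genes. Of 14 epithelial and intestinal markers, 6 were measured. Krt8, Cdh1 and Cdx1 were the brighter ones. Krt18 (142 and 158), Krt19 (215 and 251) and Ascl2 (183 and 196) were dimmer. Epcam, Vil1, Cdx2, Lgr5, Lyz2, Fabp2 and Cldn7 were too dim on both, and Muc2 had no probe under that name. Of 11 fibroblast and mesenchymal markers, 8 were measured, Col1a1, Col3a1 and Vim included, while Pdgfra, Pdgfrb and Lum were too dim on both. Acta2 (65.8 and 63.0) and Thy1 (128 and 117) were measured but dim. Of 9 immune and endothelial markers, 5 were measured, from Ptprc at 29.2 and 27.1 to Vwf at 2485 and 2253. The label of an intestinal epithelial line is thus borne out only in part. The summed scaled level of the epithelial list went from 80.3 on the water array to 77.9 on the Na2S3 array. That of the fibroblast list went from 812 to 739, and that of the immune and endothelial list from 8.43 to 6.93. A few bright probes make up most of each sum, and heights of different probes are not comparable. The sums of different lists therefore cannot be set against each other. Markers of the lists had log2 ratios between -0.43 and 0.03, and 0 passed 2-fold. The part of other cell types in the members' ratios was not tested.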

How the data were processed

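Total RNA of each culture was labelled with Cy3 and hybridised to 1 Agilent array, and both arrays lay on 1 slide, per the file headers. The deposited scanner files hold linear spot intensity, which the authors' software background-subtracted and detrended within each array. That software is Agilent Feature Extraction 10.7.1.1 per the file headers and 9.5.1.1 per the submitters' processing notes. The flags for outliers and background, another deposited column type, come from the same software. The deposited value table also holds linear intensity, with columns whose sorted values differ by at most 0.361; no source used here names its tool.

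Outlier spots (448 and 390) were left out and no spot (0) was saturated. Spots of the same probe were averaged as log2 processed signal, and the 75th percentile of the non-control probes was then subtracted on each array, which removed a shift of 0.21. A probe was well above background when over 50% of its spots were flagged so (49.5% and 49.0% of probes). Genes were named through RefSeq accessions of the GRCr8 table (21109 probes) or by the file (14743), and 9746 probes without a symbol were left out. Each gene takes the value of the brightest of its probes that pass on both arrays. A gene above background on 1 array has a bound, against the higher of its own dim value and the lowest value above background on that array. Spot errors used probes with at least 5 spots. With 1 array per group no test was run, and precision is limited by the number of arrays. Genes were called at 2-fold either way. The rule was run on simulated ratios with planted fold changes. Spot noise was their only noise, so the simulation says nothing of the variation between cultures or arrays.

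The text names all 10 members, every listed pathway gene past 2-fold, and a fixed panel of pathway genes from Tgfb1 to Tcf12. A gene of the lists and a probe sequence are not reported here, and that gene was left out of the list counts and medians. The members and lists were chosen with earlier results of these data known. Alternatives were normexp (limma 3.58.1), median, quantile, loess and spike-in scaling, the deposited table, no filter on dim probes, the median over probes, outlier spots kept, and the assignment of Smad7 and Bambi.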

Additional observations from a re-analysis of the deposited data

Results flagged for a closer look

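A probe that carries only an Ensembl transcript identifier, and so entered no gene count, lies on the strand of Skil within 10000 bases of its probes, at chromosome 2, 116669646 to 116670581 (rn4), with a gap of 3819 bases to the brighter one. It drew attention because it was well above background on both arrays and past 2-fold, at 98.1 on the water array and 294 on the Na2S3 array, a log2 ratio of 1.37 (spot error 0.16; 0.95 with normexp). The array file does not tie this identifier to Skil, so whether it reads the same transcript was not tested.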

How the results depend on the processing

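The count of members at least 2-fold higher was 3 as reported, 2 with normexp, and 3 or 4 under the other alternatives. The count at least 2-fold lower was 0, and 1 with no filter on dim probes, which lets in Bambi at background level. The difference between TGF-beta-type and BMP-type medians was 0.80 with normexp and 0.93 with Smad7 counted as BMP-type. Over all genes, 61 were higher and 31 lower with normexp, and 1062 higher and 1545 lower with no filter, against 123 and 81. Normexp adds an offset, which shrinks ratios of dim probes such as that of Snai2. All other alternatives kept the 9 ratios within 1 spot error, apart from Skil at the median of its probes. No paired analysis was possible because each group has 1 array. Signal over background limits Bambi, and single spots limit every member.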

Other observations

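Id2 has a further probe, named in the array file by the Ensembl transcript identifier that its RefSeq probe also lists, on chromosome 6 at 42781039 to 42781098 (rn4), minus strand. It was left out by the naming rule. It read 1236 on the water array and 1359 on the Na2S3 array, a log2 ratio of -0.07 (spot error 0.08), beside 0.0060 for the RefSeq probe, so neither of the Id2 probes above background stood apart from 0 by more than its spot error.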
